A study of Mus musculus with 12 samples.

Results

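The genes described here act in homologous recombination and in the neighbouring repair of DNA crosslinks and stalled replication forks. They were taken as a list of 9 symbols, Brca1, Brca2, Bard1, Rad54l, Exo1, Blm, Fanca, Fancd2 and Chek1, with every probe set that the platform tables pair with 1 of these genes and no other. A probe set is the group of short oligonucleotides on an Affymetrix chip that reports 1 transcript sequence. The 9 genes have 25 such probe sets, 18 on the chip MOE430A and 7 on the chip MOE430B, and they are 9 of 18194 genes with a probe set of their own on the 2 chips.

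RNA came from mouse mammospheres, floating clusters grown from mammary gland cells, in 2 states with 3 RNA samples each, and each sample was hybridised to both chips, for 12 arrays in all. The undifferentiated samples were mammospheres at passage 3, grown in a mix of DMEM and F12 with B-27, heparin, epidermal growth factor and basic fibroblast growth factor. Their estimated purity was 90%, with 10% myoepithelial cells, and the submitters state that such spheres formed a mammary gland when placed into a cleared fat pad. The differentiated samples were cells of such spheres kept for 6 days on dishes coated with collagen, where the medium was high-glucose DMEM and held 5% fetal bovine serum, with an estimated make-up of 50% myoepithelial and 50% luminal cells. The samples of each state are numbered 1, 2 and 4. The labels do not say that they came from separate cultures or animals, so p-values measure the spread between these RNA samples, which may be technical. Medium, serum and attachment differ together with the state, as does the fluidics station that stained the arrays, and none of these can be told apart from it.

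Homologous recombination repairs a double-strand break by copying the sister chromatid, so it works mainly while cells replicate their DNA and before they divide. Nucleases such as EXO1 trim the broken ends to single strands, BRCA1 with its partner BARD1 promotes that step, and BRCA2 acts next on the exposed strand. RAD54L then helps that strand find the matching sequence and BLM takes the joined molecules apart, while the Fanconi anaemia proteins start the repair of crosslinks and CHEK1 halts the cell cycle when replication stalls. Inherited mutations of BRCA1 and BRCA2 predispose people to breast and ovarian cancer, which makes the mammary gland a tissue in which these genes are much studied.

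Of the 9 genes only Rad54l fell in the differentiated samples by limma's test, on the 1 of its 4 probe sets that was bright enough to test, and no member rose. With 1 probe set per gene 5 of the 8 tested members, Rad54l among them, pointed down, beside 7029 of all 14977 genes tested. The undifferentiated and differentiated values overlapped on 12 of the 14 tested member probe sets. On the other 2, both among the 9 on MOE430A, the differentiated values were wholly lower. Of all tested probe sets 23.5% were wholly lower on MOE430A and 11.1% on MOE430B. Of 23 tested genes that mark dividing cells, 22 fell in the same samples. The signals of the members were low, and 15 of their 25 probe sets stayed below the background on all 6 arrays of their chip, so most of the differences below concern weak signals.

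The arrays had the same trimmed mean signal, 1500.5 on MOE430A and 1500.2 on MOE430B, and their number limits the precision. The background of an array was taken as its highest trpn control signal, from probe sets for a bacterial sequence, and it lay between 515.5 and 829.9 on MOE430A and between 1674 and 2995 on MOE430B. Against the undifferentiated mean, control transcripts added at hybridisation read 2.88, 1.44 and 2.85 times as high on the MOE430A arrays of differentiated samples 1, 2 and 4, and the 18S ribosomal RNA probe sets 33.9, 2.76 and 23.7 times. Scaled on those added controls in place of the trimmed mean, the median over the tested probe sets of MOE430A moved from a log2 difference of 0.03 to -1.07, and the share of lower ones among those that passed from 50.5% to 97.9%. Every direction given here is therefore relative to the mean signal of the array. Among cell type markers, the myoepithelial Krt14, Krt5, Myh11, Oxtr and Trp63 and the luminal Krt19, Elf5 and Gata3 were below the background on all arrays. The summed MOE430A signal of 8 fibroblast markers was 316600 to 327300 in the undifferentiated and 517000 to 724000 in the differentiated samples, and that of 6 myoepithelial markers 7245 to 7644 and 48790 to 63290. These sums are carried by few genes: Col1a1, Col1a2, Col3a1, Pdgfra and Thy1 rose while Lum (-1.52, adjusted p = 0.00039) and Fap (-1.39, adjusted p = 0.00571) fell. Of the myoepithelial markers, Acta2 alone went from a mean of 5580 to 50040. Mylk (2.84, limma adjusted p = 0.000421) and Cnn1 (adjusted p = 0.0171, undifferentiated values below the background) rose as well. With any 1 sample left out 2 to 3 myoepithelial markers rose. Of the luminal markers, 4 had a summed signal of 4186 to 4970 and then 2458 to 2605. In that sum Kit fell (mean 2037 and then 470.4), while Krt8 (0.15, above the background on all arrays of the chip), Krt18 (-1.69) and Csn2 (-0.04) did not pass. Epcam, tested on MOE430B alone, had 0.42 and did not pass. The sum of 4 macrophage markers was 3673 to 3868 and then 5308 to 5773, where Csf1r and Cd14 rose and Cd68 (-0.46) and Adgre1 (0.34) did not pass. The sum of 4 endothelial markers was 2595 to 3244 and then 2405 to 3440, where Pecam1 and Tek fell and Kdr rose (0 to 2 falls and 0 to 1 rise with any 1 sample left out). The 1 adipocyte marker tested read 328.7 to 466.4 and then 375.9 to 702.2, while Adipoq, Pparg, the leukocyte markers Ptprc and Itgam and the endothelial Tie1 stayed below the background.

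A probe set was tested if its mean signal over the 6 arrays reached 20% of the trimmed mean, which 14 member probe sets did, 9 on MOE430A and 5 on MOE430B. They cover 8 of the 9 genes, and 14977 genes were tested in all. The members that passed this filter are those with more signal, and the 11 other probe sets, with mean signals from 28.8 to 199.2, have no test. The lowest tested mean was 359.0. Where a state lay wholly below the background, the fitted log2 difference describes the signals as read and no fold is drawn from it. Only a lower bound is given, where all values of the other state exceeded the background. On all 6 arrays 2 member probe sets exceeded the background, those of Blm (1448953_at) and Fanca (1418856_a_at), 8 did so on some arrays, and of the 7 on MOE430B 5 did so on none. Of the 9 tested MOE430A probe sets 1 fell and none rose at an adjusted p under 0.05, where 14.4% of all tested probe sets of that chip were lower and 14.1% higher. Of the 5 on MOE430B none fell and none rose, against 1.12% and 0.714% of that chip, so this chip called few probe sets of any kind. The values of the states did not overlap, with the differentiated wholly lower, for 2 of the 9 MOE430A probe sets against 23.5% of the chip, and for none of the 5 on MOE430B against 11.1%. Counted by gene, with the MOE430A probe set of highest mean signal among those tested, or that of MOE430B for genes tested on that chip alone, 1 of 8 members fell and none rose, where 9.27% of all genes tested fell and 9.23% rose. A count of 1 among 8 is near that background. At an unadjusted p under 0.05 limma had 3 member probe sets, all lower and all on MOE430A. Over all tested probe sets, in either direction, 6665 of 15939 had such a p on MOE430A and 2687 of 17915 on MOE430B. The median log2 difference was -0.40 over the 9 MOE430A probe sets against 0.03 for the chip, and 0.16 over the 5 on MOE430B against 0.04.

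**Figure D1:**
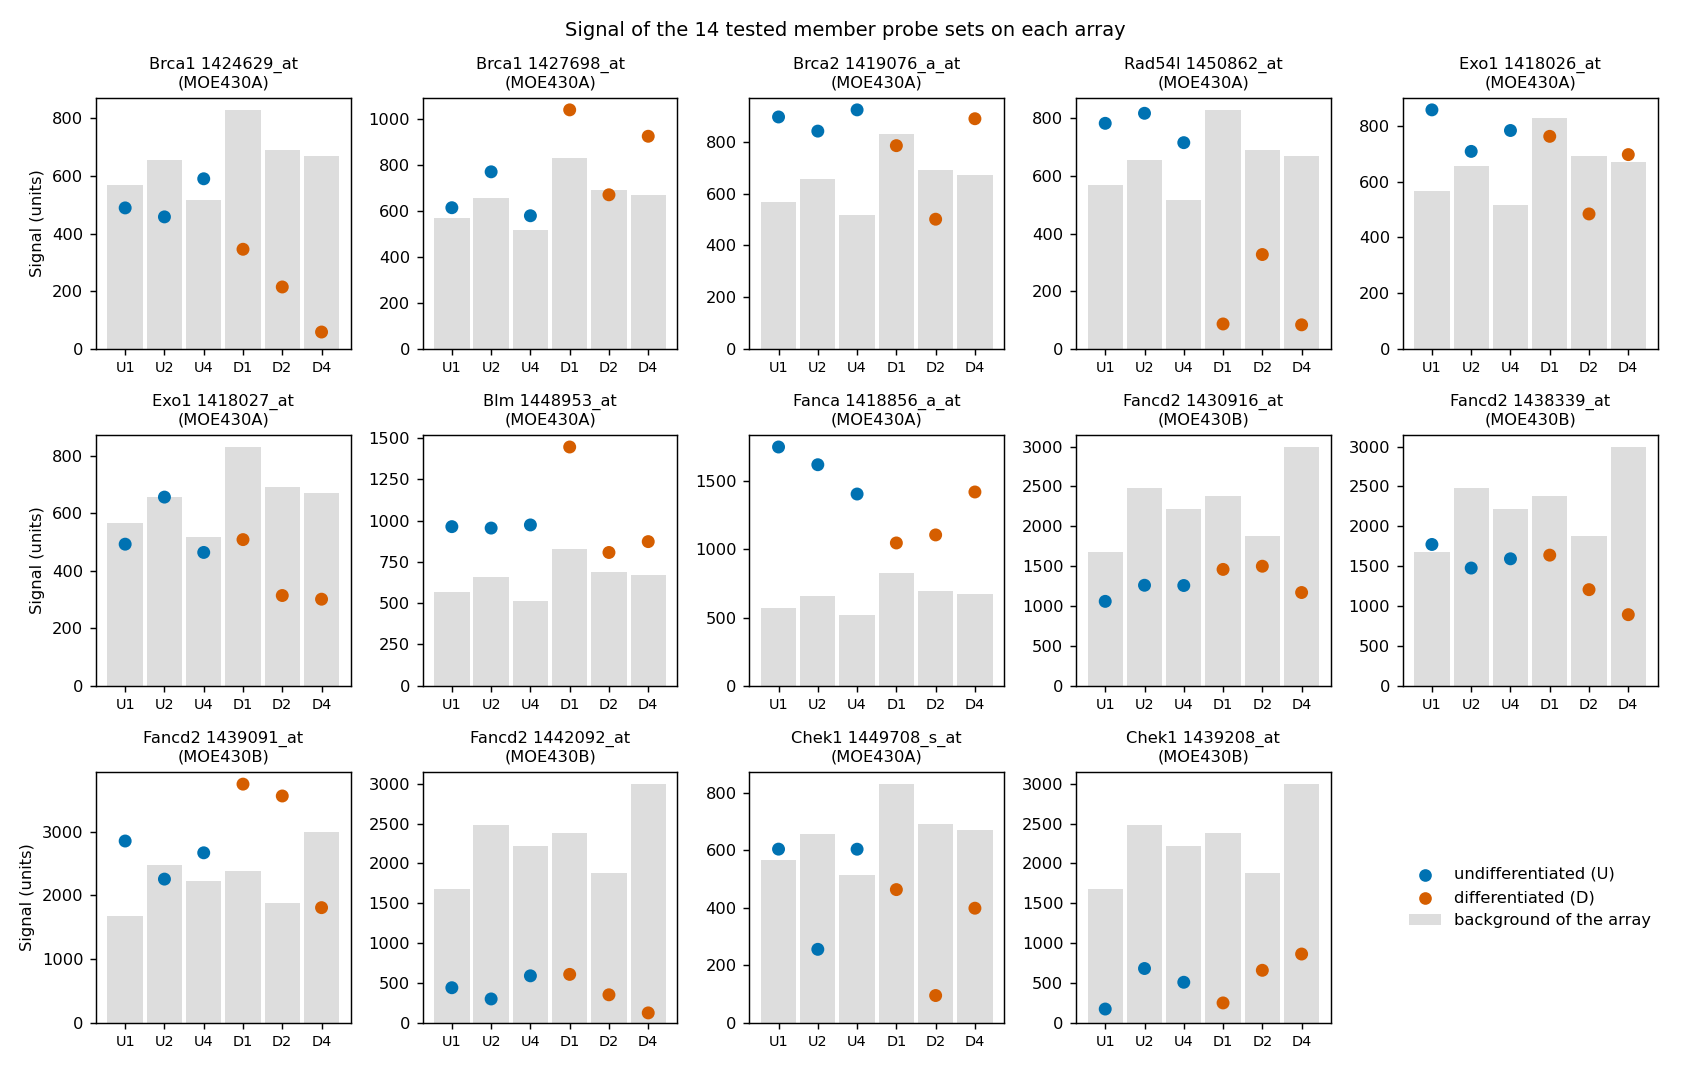
Signal (linear units) of the 14 tested member probe sets in undifferentiated samples U1, U2 and U4 (blue points) and differentiated samples D1, D2 and D4 (orange points), 1 point per array. Grey bars give the background of each array, its highest trpn control signal, and all axes start at 0. Of the MOE430A probe sets, those of Blm and Fanca lie above the bars on every array, and Rad54l lies above them in the undifferentiated and below them in the differentiated samples.

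Rad54l encodes a motor protein of the SWI2/SNF2 family that helps the broken end invade the matching duplex. Its MOE430A probe set 1450862_at read 783.1, 818 and 715.9 in undifferentiated samples 1, 2 and 4 and 85.5, 326.9 and 82.5 in differentiated samples 1, 2 and 4. All undifferentiated values exceeded the background of their arrays, all differentiated values lay below theirs, and the groups did not overlap, with differentiated sample 2 above the other two. The log2 difference was -1.97 ± 0.35 (limma SE, n = 3 per state, 95% interval -2.80 to -1.13, adjusted p = 0.0076). Because the differentiated values are below the background, only a bound holds for the size, and this probe set was at least 1.06-fold lower. In bulk RNA such a difference cannot tell fewer cells that express the gene from less of its RNA per cell. When signals under the background were raised to it, the log2 difference was -0.08 (adjusted p = 0.665, against 1.25e-10 to 0.0311 in the other alternatives with a value). A filter at 50% of the trimmed mean left the probe set out of the test.

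The 3 other Rad54l probe sets did not follow. On MOE430A, 1423123_at read 164.8, 185.3 and 144.3 in the undifferentiated and 177.8, 149.7 and 191.6 in the differentiated samples, and 1423124_x_at read 164, 171.9 and 161.2 and then 245.5, 94.8 and 263.1. On MOE430B, 1453926_at read 120.2, 441.9 and 128.6 and then 127.7, 261.2 and 90.0. All of these values are below the background and the states overlap on each, and the suffix _x_at marks probes that can match other transcripts, so the fall rests on 1 probe set. Differentiated samples 1 and 4, which were lowest for 1450862_at, are also those with the highest added-control and 18S signals given above. Without both of them, which leaves sample 2 as the 1 differentiated sample, the log2 difference was -1.07. Without differentiated sample 2 it was -2.41 (adjusted p = 0.000332).

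Brca1 encodes the large tumour suppressor protein that acts with BARD1 as a ubiquitin ligase and channels breaks into recombination. Its MOE430A probe set 1424629_at read 489, 457.8 and 590.3 in the undifferentiated and 345.2, 214.1 and 57.4 in the differentiated samples. The groups did not overlap, differentiated sample 4 was lowest, and of the 6 values only that of undifferentiated sample 4 exceeded its background. The log2 difference was -1.21 ± 0.39 (95% interval -2.14 to -0.29), with an unadjusted p of 0.0172 and a limma adjusted p of 0.0565, which does not pass. Without both differentiated samples 1 and 4, which leaves 1 differentiated sample, the log2 difference was -1.02. It passed with some differentiated samples left out, at -1.58 (adjusted p = 0.0197) without sample 1 and at -0.75 (adjusted p = 0.0487) without sample 4. It also passed with scaling on the added poly-A controls at -1.18 (adjusted p = 0.0204), on the hybridisation controls at -2.07, and with an offset of 20% of the trimmed mean at -0.72 (adjusted p = 0.0281), while with signals raised to the background it was 0.24 and did not pass.

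The other tested Brca1 probe set pointed the other way. For 1427698_at the undifferentiated values were 613.1, 769.3 and 578.1 and the differentiated values 1039, 669.3 and 924.1, with overlap between the states and a log2 difference of 0.38 ± 0.19 (limma adjusted p = 0.18). Differentiated samples 1 and 4 were the highest here, in contrast to 1424629_at, and the value was 0.25 without sample 1 and 0.04 without both. The remaining 2 were too dim to test, 1424630_a_at at 164.6, 136.8 and 62.9 and then 46.5, 24.6 and 29.0, without overlap, and 1451417_at at 156.4, 240.5 and 42.5 and then 31.6, 18.7 and 42.8. The Brca1 probe sets therefore disagree in direction, and no single direction holds for the gene.

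Bard1 encodes the partner that BRCA1 needs for its ligase activity. Its 1 probe set, 1420594_at, read 19.1, 27.8 and 31.3 in the undifferentiated and 47.1, 69.9 and 45.2 in the differentiated samples. The differentiated values lay wholly higher, yet all 6 were below the background, and the probe set was not tested.

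Brca2 encodes a tumour suppressor protein that acts on single-stranded DNA at resected breaks. Its probe set 1419076_a_at read 897.1, 842.3 and 924.6 in the undifferentiated samples, all above the background, and 786, 501 and 890.3 in the differentiated, of which only sample 4 was above it. The states overlapped, differentiated sample 2 was lowest, and the log2 difference was -0.30 ± 0.20 (95% interval -0.78 to 0.18, limma adjusted p = 0.305). The size rests on sample 2, since the log2 difference was -0.08 (adjusted p = 0.708) without it. With samples 1 and 4 left out in its place, which leaves 1 differentiated sample, it was -0.74.

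Exo1 encodes the exonuclease that extends the resection of broken ends. Probe set 1418026_at read 857.4, 708.2 and 783.3 in the undifferentiated and 762.3, 483.5 and 696.7 in the differentiated samples, a log2 difference of -0.27 ± 0.18 (limma adjusted p = 0.306). Probe set 1418027_at read 492, 655.7 and 463.3 and then 507.9, 313.5 and 300.7, a log2 difference of -0.46 ± 0.21 (adjusted p = 0.146). Both pointed down with overlap between the states. Leaving out differentiated sample 2 brought 1418026_at to -0.09 (adjusted p = 0.681), and 1418027_at passed without differentiated sample 1 (-0.67, adjusted p = 0.0379). All values of 1418027_at lay below the background of their arrays, so its differences and that pass concern signals not told from background. With signals raised to the background it had 0.30, which is the difference between the backgrounds alone. The MOE430B probe set 1430225_at ranged from 34.3 to 110.3 and was not tested.

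Blm encodes a RecQ helicase that works in resection and in the dissolution of double Holliday junctions, and it is mutated in human Bloom syndrome. Its probe set read 964.2, 955.5 and 974.5 in the undifferentiated and 1447, 807.5 and 873.4 in the differentiated samples, all above the background. The undifferentiated values lay close together, and the differentiated ones fell on both sides of them, with sample 1 highest. The log2 difference was 0.06 ± 0.22 (95% interval -0.45 to 0.57, limma adjusted p = 0.856), and it was -0.18 without differentiated sample 1. These values show no difference beyond the spread between samples, and the interval does not show that the level was the same.

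Fanca encodes a subunit of the Fanconi anaemia core complex, the ubiquitin ligase that acts at crosslinked DNA. Its probe set 1418856_a_at read 1751, 1621 and 1406 in the undifferentiated and 1047, 1106 and 1421 in the differentiated samples, all above the background. The states overlapped through differentiated sample 4, which read above undifferentiated sample 4. The log2 difference was -0.40 ± 0.16 (95% interval -0.78 to -0.03), with an unadjusted p of 0.0393 and a limma adjusted p of 0.101, which does not pass. It passed at the same difference, -0.40 (adjusted p = 0.0427), with other signals raised to the background. The other probe set, 1452513_a_at, ranged from 38 to 152.7 and was not tested.

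Fancd2 encodes the protein that this ligase modifies, and it was measured on MOE430B alone, by 4 tested probe sets. For 1439091_at the undifferentiated values were 2854, 2256 and 2669 and the differentiated values 3747, 3561 and 1808, a log2 difference of 0.16 ± 0.34 (limma adjusted p = 0.868). Undifferentiated samples 1 and 4 and differentiated samples 1 and 2 exceeded the background there. Probe set 1438339_at read 1772, 1476 and 1592 and then 1638, 1205 and 891.1, a log2 difference of -0.39 ± 0.29 (adjusted p = 0.57). Of the other 2 probe sets, 1430916_at read from 1058 to 1499 and had 0.19 ± 0.24 (adjusted p = 0.752), and 1442092_at read from 124.3 to 607.6 and had -0.38 ± 0.49 (adjusted p = 0.76). All values of 1430916_at and 1442092_at lay below the background, and for 1438339_at only that of undifferentiated sample 1 exceeded it. The 4 probe sets split evenly in direction, mostly on signals below the background. The states overlapped on each, and differentiated sample 4 was the lowest differentiated sample on all of them. With any 1 sample left out 1439091_at ranged from -0.02 to 0.49, 1438339_at from -0.60 to -0.19, 1430916_at from 0.11 to 0.30 and 1442092_at from -0.79 to 0.10.

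Chek1 encodes the checkpoint kinase that ATR activates at stalled forks. Probe set 1449708_s_at read 603.9, 255.5 and 603.6 in the undifferentiated and 463.2, 94.9 and 398.5 in the differentiated samples, a log2 difference of -0.60 ± 0.49 (95% interval -1.75 to 0.54, limma adjusted p = 0.383). Probe set 1450677_at, too dim to test, read 369.6, 157.5 and 368 and then 111.1, 32.1 and 156.8, with the differentiated values wholly lower. For 1449708_s_at the log2 difference was -0.08 (adjusted p = 0.88) without differentiated sample 2 and -0.95 without undifferentiated sample 2. On 1449708_s_at and 1450677_at sample 2 was the lowest of its state, in the undifferentiated as in the differentiated samples. On MOE430B, 1439208_at read 172.9, 681.4 and 508.7 and then 249.4, 658.9 and 863, all below the background, and had 0.34 ± 0.56 (adjusted p = 0.819). There sample 2 was not the lowest of either state. Without undifferentiated sample 1 this value was -0.13, so its direction rests on that sample. The other 2 Chek1 probe sets ranged from 12.9 to 139.9 and were not tested.

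**Figure D2:**
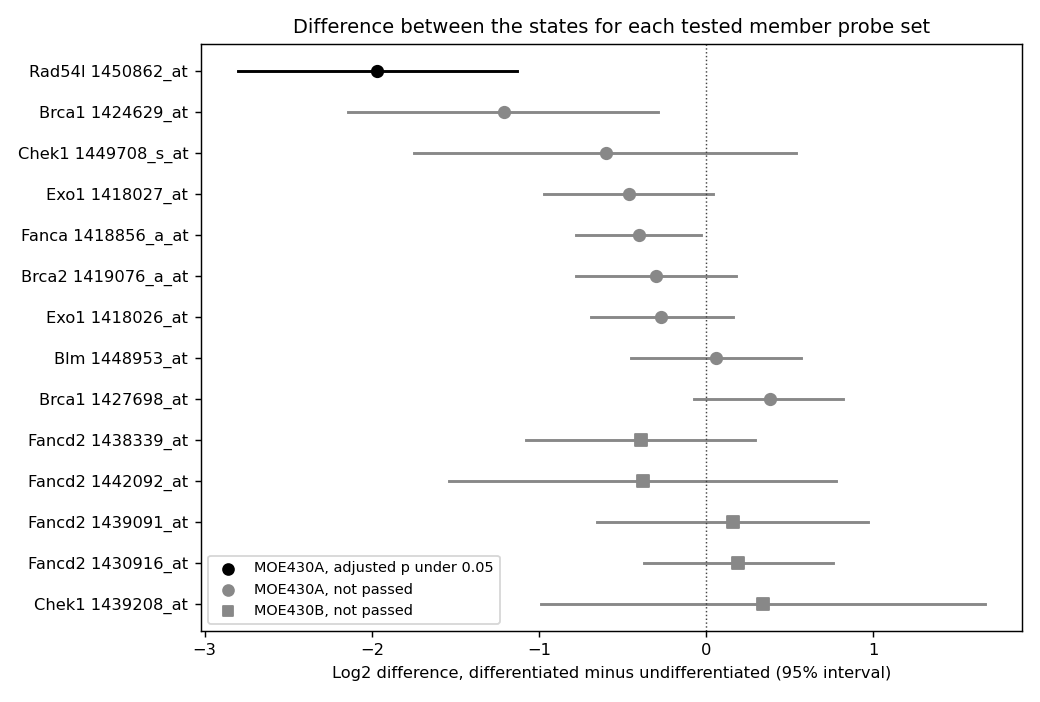
Log2 difference, differentiated minus undifferentiated, with its 95% interval for each tested member probe set (circles, MOE430A; squares, MOE430B), from limma with 3 samples per state. Only the Rad54l probe set 1450862_at, drawn in black, passed the adjusted p of 0.05, and the intervals of all others but Brca1 1424629_at and Fanca 1418856_a_at include 0.

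The differentiated samples were not equally low. Over the 9 tested MOE430A probe sets, differentiated sample 2 was the lowest of its state on 5, sample 4 on 3 and sample 1 on 1, and of the undifferentiated samples sample 2 was lowest on 5 and sample 4 on 4. The mean centred log2 profile over the 7 members with a tested MOE430A probe set was 0.30, 0.14 and 0.22 in undifferentiated samples 1, 2 and 4 and -0.06, -0.46 and -0.14 in differentiated samples 1, 2 and 4. The nearest genes to this profile over the 6 MOE430A arrays, by root mean square log2 difference, were the glypican gene Gpc1 (0.040), the casein kinase gene Csnk1e (0.045), the prostacyclin synthase gene Ptgis (0.052), Aadac (0.063) and Ormdl1 (0.064). Such closeness was picked from all genes tested on that chip and is given as a description. Among the 7 members in the profile Rad54l (-1.97) and Chek1 (-0.60) had the largest log2 differences, so the profile leans on them most.

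RefSeq promoter windows, 250 bases before to 50 after an annotated start (build GRCm38.p6), were matched for 7 of the 9 members. They were searched on both strands for E2F-type letters (TTCCCGC or TTCGCGC or TTGCCGC or TTGGCGC), named for the factors that drive S-phase genes, for letters of the cell cycle homology region type (TTTGAA or TTCGAA), a site read in genes of dividing cells, and for the CCAAT box (CCAAT). E2F-type letters were in 5 of the 7 windows, those of Bard1, Blm, Brca1, Brca2 and Chek1, against 9.57% of 32851 windows of the same length. The cell cycle homology letters were in 1, that of Bard1, against 19.2%, and CCAAT was in 4, those of Blm, Brca1, Fanca and Rad54l, against 37.4%. Counted from the start site, the E2F-type match began at -208 in Bard1, -168 in Brca2, -142 in Blm, 22 in Brca1 and 44 in Chek1, and no match overlapped another. The window of Rad54l, the member that fell, held only CCAAT at -50, and these letters describe the windows and no binding. Rad54l is printed as the window of the member that fell, and Brca1 and Chek1 as those whose E2F-type letters lie downstream of the start; capitals mark the matched letters, which read as their reverse complement where the match is on the other strand.
Rad54l, chr4:116123641-116123940, minus strand: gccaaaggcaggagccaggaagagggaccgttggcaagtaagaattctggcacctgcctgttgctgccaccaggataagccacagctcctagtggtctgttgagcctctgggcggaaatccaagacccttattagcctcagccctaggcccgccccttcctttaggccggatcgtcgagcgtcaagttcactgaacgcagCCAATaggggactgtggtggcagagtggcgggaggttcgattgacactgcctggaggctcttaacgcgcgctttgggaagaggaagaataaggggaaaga
Brca1, chr11:101551906-101552205, minus strand: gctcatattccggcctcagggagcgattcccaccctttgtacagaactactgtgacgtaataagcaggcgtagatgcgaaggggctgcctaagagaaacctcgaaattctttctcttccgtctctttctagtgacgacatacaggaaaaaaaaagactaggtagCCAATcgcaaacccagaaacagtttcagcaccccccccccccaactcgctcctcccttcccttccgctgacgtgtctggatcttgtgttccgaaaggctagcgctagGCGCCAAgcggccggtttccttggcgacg
Chek1, chr9:36726609-36726908, minus strand: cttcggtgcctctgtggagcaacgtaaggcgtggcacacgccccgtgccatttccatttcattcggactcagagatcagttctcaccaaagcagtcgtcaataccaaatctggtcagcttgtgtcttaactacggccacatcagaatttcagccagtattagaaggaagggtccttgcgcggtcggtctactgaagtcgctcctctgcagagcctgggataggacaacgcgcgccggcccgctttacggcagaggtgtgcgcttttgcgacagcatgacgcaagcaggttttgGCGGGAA

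**Figure D3:**
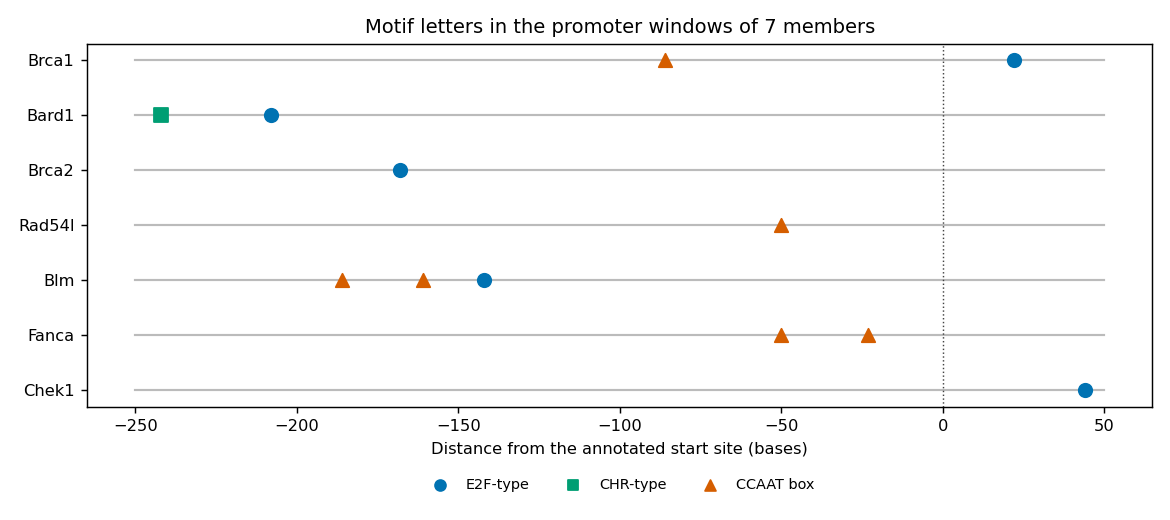
Positions of E2F-type letters (circles), cell cycle homology region letters (CHR-type, square) and CCAAT boxes (triangles) in the promoter windows of 7 members, in bases from the annotated start site, which is the dotted line. The E2F-type letters appear in 5 windows at unlike distances, and the Rad54l window shows a CCAAT box alone.

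The rest of the pathway was read from lists of other genes, with 1 probe set per gene chosen by the same rule, MOE430A first. Of 31 other homologous recombination genes tested, 3 fell and none rose, where 9.27% of all genes tested fell and 9.23% rose. The count of falls is near that share, and the same shares stand beside the counts of each list below. The median log2 difference was -0.17 against 0.04 over all 14977 genes. Rad51ap1, which encodes an accessory protein of strand invasion, read 1098, 858.8 and 857.5 in the undifferentiated and 265.2, 407.2 and 102.9 in the differentiated samples and fell by at least 1.28-fold (limma adjusted p = 0.0116). Nbn, of the break-sensing MRN complex, read 935.9, 1190 and 900.3 and then 583.8, 331.3 and 596.4 and fell by at least 1.38-fold (adjusted p = 0.0227). Rpa1, which coats single-stranded DNA in replication as well as repair, read 4645, 5066 and 5117 and then 2574, 2757 and 2361, above the background throughout, a log2 difference of -0.93 ± 0.12 (adjusted p = 0.00215). In all 3 the groups did not overlap, and the other tested Rad51ap1 probe set had -0.22 and did not pass. Palb2, which joins BRCA1 to BRCA2, had -0.25 ± 0.29 (adjusted p = 0.736). The count of 3 fell to 1 without undifferentiated sample 4, and was between 1 and 3 with any 1 of the 6 samples left out.

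Of 19 other Fanconi anaemia genes 4 fell and 2 rose. Among those that fell, Cenps and Cenpx encode histone-fold proteins that act with FANCM and also at centromeres, and Uhrf1 maintains DNA methylation as well as sensing crosslinks. Uhrf1 was at least 1.95-fold lower (adjusted p = 0.000187), Cenpx at least 1.53-fold (adjusted p = 0.0196), and Cenps passed on MOE430B (adjusted p = 0.0495) with 675.8, 1340 and 1359 and then 109.6, 126.8 and 297, all below the background. Usp1, the protease that reverses FANCD2 ubiquitylation, was the last of the 4 and is named because it completes the count, chosen after its values were seen (-0.76 ± 0.14, adjusted p = 0.00781). Fanci, the partner of FANCD2, rose from 1000, 1065 and 886.8 to 1478, 1252 and 1701 (0.54 ± 0.15, adjusted p = 0.0357), and Faap20, a core complex subunit, rose by 0.60 ± 0.13 (adjusted p = 0.0165). With any 1 sample left out 2 or 3 of these genes fell, and the rises were at most 2, with 0 of them passing without undifferentiated sample 4.

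Among 15 ATR and CHK1 checkpoint genes 4 fell and none rose, with a median of -0.40. Topbp1, the activator of ATR, read 1795, 1701 and 1947 and then 737.1, 552.5 and 562.3 and fell by at least 2.49-fold (adjusted p = 0.000641). Timeless, of the fork protection complex, was at least 1.76-fold lower (adjusted p = 0.0247) and Rhno1, which binds the 9-1-1 clamp, at least 2.04-fold (adjusted p = 0.00771). Cdc25b, a phosphatase that CHK1 opposes, was the other one that fell and was named after its values were seen (-1.13 ± 0.20, adjusted p = 0.00703). Atr did not pass at -0.54 ± 0.23 (adjusted p = 0.123). The other tested probe sets of Topbp1 (-0.83) and Timeless (-0.52) did not pass. With any 1 sample left out 3 to 5 genes of this list fell.

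Of 18 break-signalling genes 3 fell and 1 rose. H2ax, the histone variant phosphorylated around breaks, read 4033, 3732 and 4038 and then 1642, 1938 and 2262 (-1.0 ± 0.15, adjusted p = 0.00347). Paxip1 (-1.02 ± 0.22, adjusted p = 0.0148) and the ubiquitin ligase gene Rnf8 (-0.69 ± 0.14, adjusted p = 0.0106) fell as well. Atm, the kinase that signals breaks, rose from 838.1, 602.5 and 818.8 to 1142, 1471 and 1457 (0.79 ± 0.17, adjusted p = 0.0153), although the other Atm probe set tested had -0.29. Trp53bp1, which restrains resection, had -0.02 ± 0.14 (adjusted p = 0.938).

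The other repair pathways moved in both directions or little. Of 9 non-homologous end joining genes none fell and 2 rose, the DNA-dependent kinase gene Prkdc (adjusted p = 0.0494), with 324.2, 184.7 and 160 and then 338.4, 437.9 and 433.6, all below the background, and Xrcc6 (0.49 ± 0.12, adjusted p = 0.0203), with 0 to 1 passing when any 1 sample was left out, and the other tested Xrcc6 probe set had 0.07. Mismatch repair had 1 fall, Msh6 (-0.76 ± 0.17, adjusted p = 0.0168), and 1 rise, Mlh3 (adjusted p = 0.0478), among 5 genes. The rise, of which 1 of 3 differentiated values exceeded the background, did not pass with any 1 sample left out, and the fall did not pass without undifferentiated sample 2. Base excision repair had 4 falls and 2 rises among 17. The largest falls were in Mpg (-1.50 ± 0.26, adjusted p = 0.00606), Xrcc1 (at least 1.37-fold, adjusted p = 0.00377) and Ung (adjusted p = 0.0188, with 1 of 6 values above the background). The rises were in Nthl1 (adjusted p = 0.0245) and Mbd4 (adjusted p = 0.0116). Of the differentiated values 1 of 3 exceeded the background for Nthl1 and 2 of 3 for Mbd4, so no bound is drawn for these rises. The other tested probe sets of Mpg (-0.63) and Mbd4 did not pass. With any 1 sample left out 2 to 4 of that list fell and 1 to 2 rose. Nucleotide excision repair had 1 fall among 17, Ercc1 (-0.65 ± 0.12, adjusted p = 0.00905), of which 2 other tested probe sets had -0.24 and 1.05.

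Genes of the E2F, pocket protein and MuvB group, whose products regulate genes of the cell cycle, had 3 falls and no rise among 20. E2f8 was at least 1.07-fold lower (adjusted p = 0.00116), Rbl1 at least 1.34-fold (adjusted p = 0.00654) and E2f1 read 2760, 2471 and 2213 and then 1456, 1092 and 1575 (-0.83 ± 0.17, adjusted p = 0.0127). The 2 other tested probe sets of Rbl1 had -0.47 and 1.29 and those of E2f1 -0.69 and 0.27, and none of these passed. Mybl2 (-0.19 ± 0.13, adjusted p = 0.292) and Foxm1 (-0.26 ± 0.14, adjusted p = 0.213) did not pass. Of 16 p53 target genes 3 fell and 3 rose, with falls in Pmaip1 (at least 1.22-fold, adjusted p = 9.06e-05), Mdm2 (-1.20 ± 0.28, adjusted p = 0.0208) and Zmat3 (-0.53 ± 0.13, adjusted p = 0.0263) and the larger rises in Ddit4 (1.45 ± 0.22, adjusted p = 0.00354) and Plk2 (1.39 ± 0.18, adjusted p = 0.00205). The other tested Plk2 probe set had -0.26 and did not pass. Between 1 and 3 of that list fell with any 1 sample left out.

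Of 23 genes that mark dividing cells 22 fell and none rose, with a median log2 difference of -1.68, and 20 to 22 fell with any 1 sample left out. Mki67 read 2938, 2915 and 2877 in the undifferentiated and 742, 939.7 and 900.8 in the differentiated samples (-1.68 ± 0.13, adjusted p = 0.000211). Mcm6, of the replicative helicase, was at least 3.35-fold lower, the spindle checkpoint gene Bub1b at least 1.99-fold, and Birc5 had -2.65 ± 0.34 (adjusted p = 0.00189). Of the 2 other tested probe sets of each, 1 also fell for Mcm6 (-1.62) and for Bub1b (-2.91), and 1 did not pass (0.07 and 0.15). The 1 that did not pass was Tyms on MOE430B, named after its values were seen (adjusted p = 0.205), whose signals were below the background. The summed signal of 22 of these genes was 73180 to 75850 in the undifferentiated and 21530 to 25010 in the differentiated samples, and it moved with the fall of Rad54l. Its part in that fall was not tested, and neither was the difference between this list and the members. The members' median of -0.28 over 8 genes and their 1 fall stand beside it as counts, for genes with weaker signals.

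**Figure D4:**
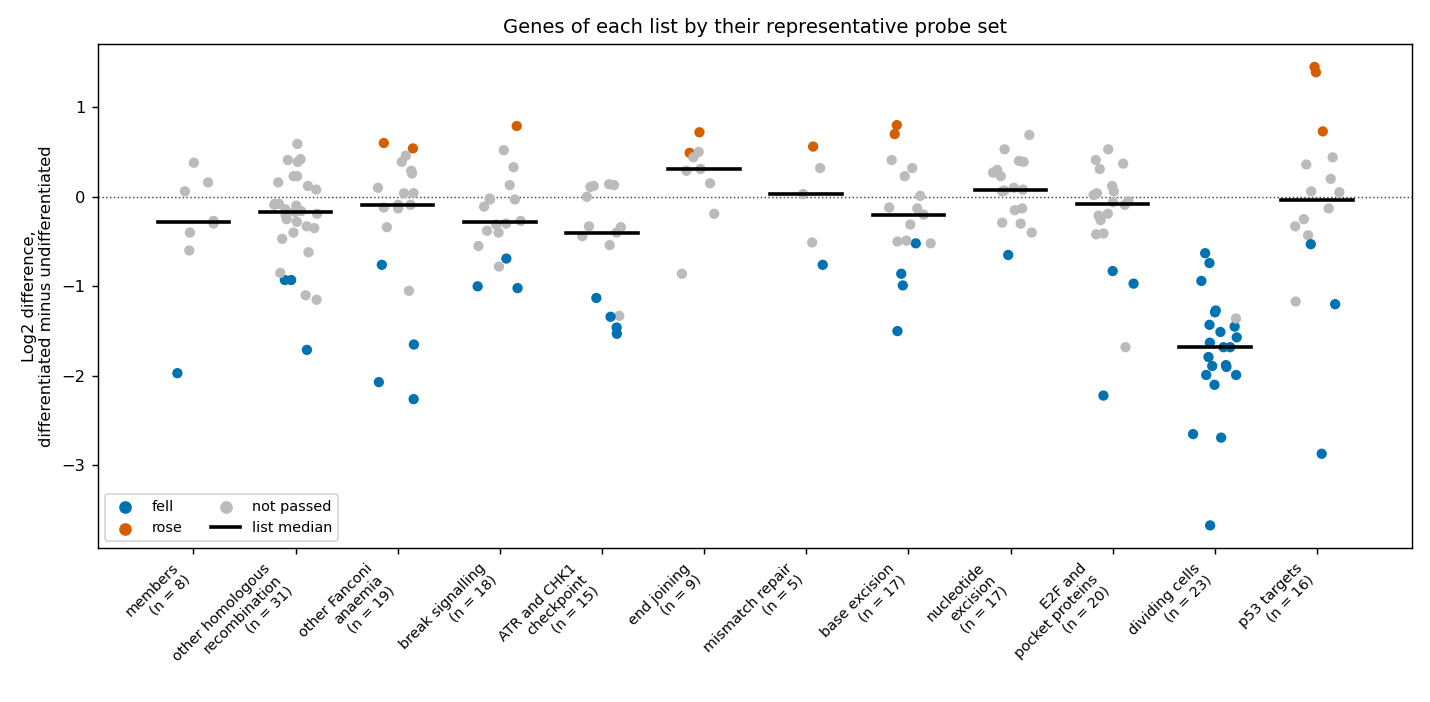
Log2 difference, differentiated minus undifferentiated, of each tested gene in 12 lists, with the brightest tested MOE430A probe set per gene, or that of MOE430B where only that chip tested it. Blue points fell, orange points rose and grey points did not pass limma's adjusted p of 0.05, and black lines are list medians. All 23 dividing-cell genes lie below 0 with a median of -1.68, and the members centre on -0.28 with Rad54l apart.

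**Figure D5:**
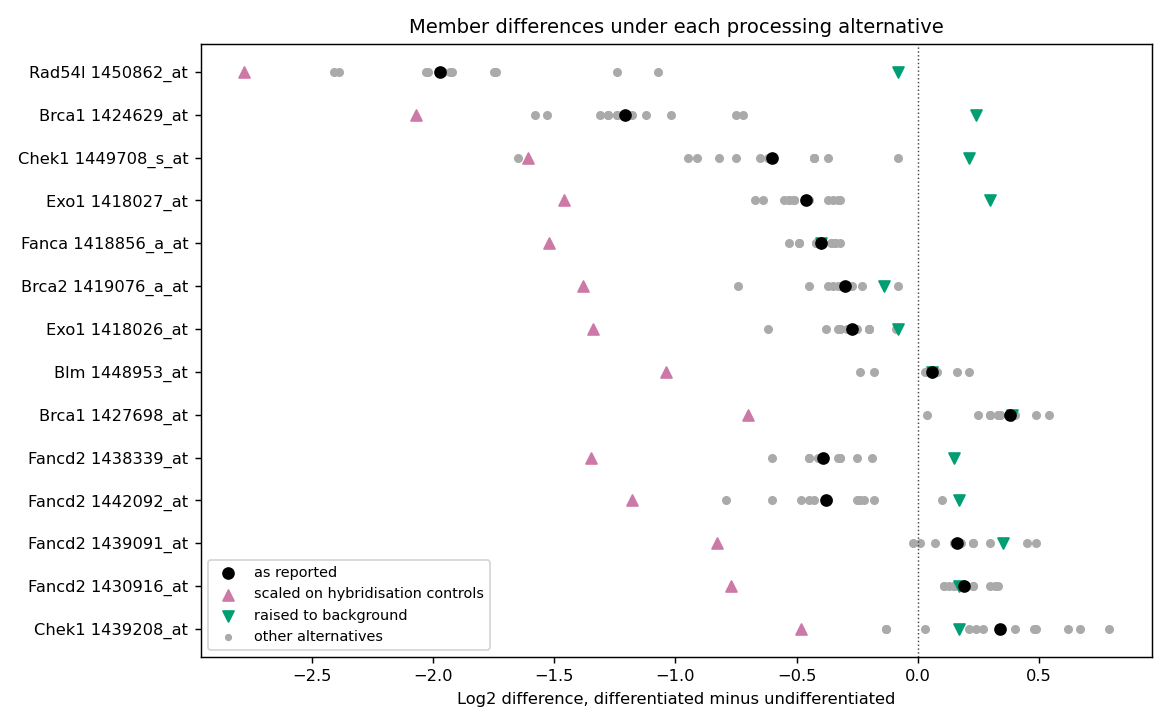
Log2 difference of each tested member probe set as reported (black circles) and under the processing alternatives, 1 point each. Scaling on the hybridisation controls (pink triangles) moved every probe set down, and raising dim signals to the background (green triangles) brought Rad54l to -0.08 and Brca1 1424629_at to 0.24.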

How the data were processed

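Per the submitters' processing notes, the deposited values were made with MAS5. No version of it is stated there. They are an intensity on a linear scale, 1 signal per probe set and array, and the deposited columns of a chip have equal trimmed means (2% off each end), so the authors had scaled them to a common target. Probe sets were named through the platform tables and RefSeq symbols (GRCm38.p6): of 22690 on MOE430A 20393 have 1 gene, 691 several and 1606 none, and of 22575 on MOE430B 14674, 245 and 7656. Control probe sets (AFFX, 64 per chip) were not tested.

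From the deposited signals, log2 values were computed after adding 5% of the trimmed mean (75 units), for probe sets whose mean reached 20% of it (300 units), 15939 on MOE430A and 17915 on MOE430B. Each chip was fitted apart with limma 3.58.1 in R 4.3.3 (lmFit and eBayes, no covariate), with Benjamini-Hochberg adjustment over the chip and a threshold of 0.05. A log2 difference on this scale understates the change of dim probe sets. Python 3.11.15 with pandas 2.3.3, SciPy 1.17.1 and matplotlib 3.10.9 made tables and figures. The fit was tested on simulated data. List genes are given by the tested MOE430A probe set with the highest mean signal, or by one of MOE430B if only that chip tested them, and members by all probe sets. Lower bounds raise values of a state that lies wholly below the trpn background to that background. Intervals use limma's moderated degrees of freedom.

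Named genes are the members, up to 3 largest falls and 2 largest rises without overlap in each other list (markers of cell types apart), 8 genes fixed whatever their values (Palb2, Atm, Atr, Trp53bp1, E2f1, Mybl2, Foxm1 and Mki67), and the 5 nearest profiles. A further gene of the rule is not reported here. The members and lists were chosen with earlier results of these data known. Same-numbered samples of the 2 states did not deviate together (r from -0.021 to 0.047 between deviations from state means), so the number was not taken as a pairing. The instrument records put undifferentiated sample 1 in another scan session than all other samples, so the session was tried as a block. Alternatives covered scaling, normalization, offset, filter, prior, blocks and left-out samples. Raising dim signals to the background was added after the data had been seen.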

Additional observations from a re-analysis of the deposited data

Results flagged for a closer look

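The 18S ribosomal RNA control probe sets, which no comparison uses, read higher on the MOE430A arrays of the differentiated samples than on the undifferentiated ones. Against the undifferentiated mean they were 33.9 times as high in differentiated sample 1, 2.76 times in sample 2 and 23.7 times in sample 4, while the undifferentiated samples 1, 2 and 4 lay at 0.922, 0.463 and 2.34 of that mean. On MOE430B the differentiated values were 23.7, 1.61 and 15.8. Among the members, Rad54l 1450862_at was lowest in samples 1 and 4 (85.5 and 82.5, against 326.9 in sample 2), whereas Brca1 1427698_at was highest there (1039 and 924.1, against 669.3). The part of the 18S signal in these values was not tested.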

How the results depend on the processing

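With Rad54l 1450862_at, 17 of 18 alternatives kept the fall, with log2 differences from -2.78 to -1.07, and with signals raised to the background, an alternative chosen after seeing the data, it was -0.08. The count of member probe sets that fell, 1 as reported, was also 1 with signals raised to the background, where it was Fanca 1418856_a_at (-0.40, adjusted p = 0.0427) and not Rad54l. The count was 8 (6 genes) with scaling on the hybridisation controls, 2 with scaling on the poly-A controls and 2 with an offset of 20%. Of all tested MOE430A probe sets, 10955 of 16310, 1291 of 15971 and 2536 of 15939 fell in these settings, in that order. The 8 thus stand beside a shift of most of that chip. The count was 0 (0 genes) with limma after a filter at 50% and 1 to 3 with any 1 sample left out. After the 50% filter 1 of the remaining member probe sets had an unadjusted p under 0.05, and 7 of the 14, Rad54l 1450862_at and Brca1 1424629_at among them, had left the test. At that filter 5486 of 10919 MOE430A and 2329 of 12572 MOE430B probe sets had such a p. Of the other homologous recombination genes 3 fell, but 21 with hybridisation-control scaling, 5 with the mean over a gene's probe sets, 5 with its probe set of lowest p-value and 1 to 3 with any 1 sample left out.

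Scaling on the hybridisation controls turned Brca1 1427698_at to -0.70, Blm to -1.04 (adjusted p = 0.0161), Fancd2 1430916_at to -0.77 and 1439091_at to -0.83, and Chek1 1439208_at to -0.48. Raising signals to the background, which is higher on the differentiated MOE430A arrays, moved the median of all its probe sets to 0.18. It gave 0.24 for Brca1 1424629_at, 0.30 for Exo1 1418027_at and 0.21 for Chek1 1449708_s_at. For Fancd2 it gave 0.15 on 1438339_at and 0.17 on 1442092_at. All values of Exo1 1418027_at and Fancd2 1442092_at lay below the background, so theirs are differences between the backgrounds alone. Only 1 undifferentiated value exceeded it for Brca1 1424629_at and for Fancd2 1438339_at, and 2 for Chek1 1449708_s_at. These values therefore give no direction for the genes. With any 1 sample left out Blm ranged from -0.18 to 0.21, Fancd2 1439091_at from -0.02 to 0.49 (both lowest without differentiated sample 1), Fancd2 1442092_at from -0.79 to 0.10 (highest without differentiated sample 4) and Chek1 1439208_at from -0.13 to 0.79, lowest without undifferentiated sample 1 and, by construction, the same with the scan session as a block. Without differentiated samples 1 and 4 Blm was -0.24. The causes were not tested where none is given.

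Over all MOE430A probe sets 4550 passed, 11188 with hybridisation-control scaling, 2514 with poly-A scaling, 2751 to 3870 with any 1 sample left out (lowest without undifferentiated sample 4, 2851 without sample 2) and 2501 without differentiated samples 1 and 4. On MOE430B 328 passed, and the counts were 1512, 168 and 39 to 145 in that order. They were 838 with a trend and robust prior, 58 with the scan session as a block and 624 with signals raised to the background. With the sample number as a replicate block limma called 3563 probe sets on MOE430A and 0 on MOE430B (2505 at an unadjusted p under 0.05), and Rad54l 1450862_at kept -1.97 (adjusted p = 0.014); the block changed no call of a member. On MOE430B 5 of 7 member probe sets never exceeded the background, so little can be read there.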
